A study of Mus musculus with 18 samples.

Results

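The 28 genes described here encode enzymes of cholesterol synthesis between acetyl-CoA and cholesterol, the SREBP transcription factors with the proteins that control them, and 3 proteins that carry sterols. They were chosen by gene symbol from a list of pathway members, and all 28 were found among the 55401 genes of the deposited tables. The study asked how RECTAS, a small molecule named as a rectifier of aberrant splicing, alters RNA in mouse tissues. Polyadenylated RNA from liver, lung and colon of C57BL/6N mice aged 7 weeks was sequenced in 18 libraries. In the RECTAS groups the animals had received 100 mg/kg of the compound by mouth in 0.5% carboxymethyl cellulose (CMC). The vehicle groups had received 0.5% CMC alone, so that every animal carried the suspending agent. Doses were given 4 h apart, and the tissues were taken 8 h after the first of them. Each tissue gave 3 RECTAS libraries and 3 vehicle libraries. The labels name no transgene or mutation and do not tell how many animals stand behind a group, or if liver, lung and colon were taken from the same ones, so the p-values measure only the spread between these libraries.

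Cholesterol is built from acetyl-CoA through mevalonate, isoprenoid pyrophosphates, squalene and lanosterol. When sterols in the endoplasmic reticulum are scarce, SCAP carries SREBP2 to the Golgi apparatus, where it is cut, and the released fragment enters the nucleus and switches on the genes of the pathway. When sterols are plentiful, the INSIG proteins hold SCAP back, and oxysterols activate LXR, which raises the cholesterol exporter ABCA1. The liver is a main site of synthesis in the mouse, and in hepatocytes SREBP1c, a product of Srebf1, is driven by insulin and LXR and acts mainly on fatty acid synthesis.

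Nuclear SREBP binds sterol regulatory elements together with the CCAAT-binding factor NF-Y and with SP1, so the promoters were searched for these letters. RefSeq promoter sequences (build GRCm38.p6, 250 bases before to 50 bases after an annotated start) were present for 24 of the 28 genes, and both strands were read. The 9 letters TCACNCCAC, one written form of the sterol regulatory element, occurred in 1 of 24 genes (4.17%), against 1.44% of the 27025 genes in the promoter table. CCAAT occurred in 21 of 24 genes (87.5%), against 41.1% of all genes and 42.2% of genes that passed the expression filter in the fit of all libraries. GGGCGG, a core form of the SP1 site, also occurred in 21 of 24 genes (87.5%), against 38.2% of all genes and 63.1% of the genes that passed the filter. The E-box form TCACGTGA occurred in 0 of 24 genes, against 1.12% of all genes. A gene was counted when any of its annotated promoters held the letters. Counted by promoter, CCAAT occurred in 22 of 32, against 37.4% of all promoters, and GGGCGG in 25 of 32, against 35.7%. No match overlapped another in the 4 promoters printed here, a match is not a bound site, and a missing match says only that these letters are not in the window.

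4 promoters are shown because their genes carry the results below, and the last 3 of them were chosen after the values were seen. Hmgcs1 is the gene with the sterol regulatory letters, Insig1 and Pmvk had the smallest p-values in liver and lung, and Mvd varied most between vehicle livers. Capitals mark TCACNCCAC and CCAAT on either strand (ATTGG is CCAAT read from the other strand), and each sequence is printed 5′ to 3′ on the strand of its gene.
Hmgcs1, chr13:119690101-119690400, plus strand: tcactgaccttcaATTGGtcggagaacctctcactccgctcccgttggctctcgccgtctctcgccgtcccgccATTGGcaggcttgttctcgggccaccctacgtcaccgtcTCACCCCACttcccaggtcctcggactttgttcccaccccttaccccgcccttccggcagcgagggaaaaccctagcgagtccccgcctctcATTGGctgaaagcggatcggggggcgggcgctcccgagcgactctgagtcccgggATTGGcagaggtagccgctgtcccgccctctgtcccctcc
Insig1, chr5:28071162-28071461, plus strand: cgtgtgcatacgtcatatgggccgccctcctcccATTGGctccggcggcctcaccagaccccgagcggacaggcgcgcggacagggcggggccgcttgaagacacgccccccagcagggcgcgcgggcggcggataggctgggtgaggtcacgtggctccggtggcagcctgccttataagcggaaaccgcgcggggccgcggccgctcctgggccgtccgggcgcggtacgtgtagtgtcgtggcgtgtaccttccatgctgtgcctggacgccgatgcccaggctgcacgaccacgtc
Mvd, chr8:122443373-122443672, minus strand: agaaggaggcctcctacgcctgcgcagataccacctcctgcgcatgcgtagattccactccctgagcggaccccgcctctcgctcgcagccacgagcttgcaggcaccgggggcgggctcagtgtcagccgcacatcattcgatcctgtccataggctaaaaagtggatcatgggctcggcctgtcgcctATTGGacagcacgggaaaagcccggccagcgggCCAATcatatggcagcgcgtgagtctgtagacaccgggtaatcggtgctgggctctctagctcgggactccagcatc
Pmvk, chr3:89454291-89454590, plus strand: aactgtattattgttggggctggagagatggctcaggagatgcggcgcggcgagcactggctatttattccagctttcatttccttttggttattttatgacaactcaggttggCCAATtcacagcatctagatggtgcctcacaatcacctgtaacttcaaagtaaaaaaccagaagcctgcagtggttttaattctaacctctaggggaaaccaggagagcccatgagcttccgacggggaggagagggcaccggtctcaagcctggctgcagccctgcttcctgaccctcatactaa
In the Hmgcs1 promoter the sterol regulatory letters stood at bases 114 to 122 of the 300 shown, between CCAAT boxes read on the minus strand at bases 75 to 79 and 206 to 210. Insig1 held 1 CCAAT box and 3 GGGCGG boxes, and Mvd held 2 CCAAT boxes and 1 GGGCGG box. The Pmvk promoter printed held 1 CCAAT box and none of the other searched letters. Pmvk has another annotated promoter, at chr3:89459321-89459620, that held none of the searched letters, and the one with CCAAT was printed.

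Values are in TPM, a transcript abundance corrected for transcript length. They add to the same total in every library and keep no record of read depth, so the depth behind a value is unknown. Between 19836 and 25227 genes had a value above 0 in a library. Defining markers were high in the tissue named by the label: the summed TPM of 8 hepatocyte genes was 97587 to 117978 in liver, that of 6 alveolar genes was 38220 to 46501 in lung, and that of 8 colon epithelial genes was 21019 to 37412 in colon. Hepatocyte genes were also found in lung, at a sum of 11, 71.6 and 610.0 TPM in the RECTAS lungs and 30.0, 531 and 1489 TPM in the vehicle lungs, with Apoc3 at 0 in RECTAS lung 1. The smooth muscle sum over 5 genes was 1851, 1889 and 967 TPM in the RECTAS colons and 3032, 1135 and 1083 TPM in the vehicle colons. One liver library stands apart by its level for the genes of this pathway. Their summed TPM was 1788 in vehicle liver 1, against 2495 to 2871 in the other livers. That library was the lowest of the vehicle livers for 22 of the 27 pathway genes tested, against 51.8% of all genes tested in liver. Such a count does not single it out: RECTAS liver 1 was the lowest of its group for 20 of 27, against 30.2%.

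Among vehicle tissues the pathway was highest in liver. The mean of log2(TPM + 1) over the 28 genes was 5.10, 5.83 and 5.76 in the vehicle livers, 4.35, 4.51 and 4.65 in the vehicle lungs, and 4.96, 5.16 and 4.99 in the vehicle colons, with vehicle liver 1 below vehicle colon 2. As a share of all TPM, the 28 genes held 0.236% ± 0.051 in vehicle liver, 0.0796% ± 0.0090 in vehicle lung and 0.123% ± 0.013 in vehicle colon (SD, n = 3 each). By mean TPM, 20 genes were highest in liver, 2 in lung and 6 in colon, and 16 genes followed the order liver, colon, lung. In bulk tissue a smaller number of cells of a type and less RNA per cell cannot be told apart.

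Tissue differences were tested with limma on log2(TPM + 1) in the 9 vehicle libraries, with p-values adjusted over all genes at a threshold of 0.05. Npc1l1 did not pass the filter on low values in this fit, so 27 of the 28 genes were tested. In liver against colon 12 genes were higher and 4 lower, where 79.9% of all genes tested passed (16.1% higher and 63.8% lower). In lung against colon 4 genes were higher and 14 lower, where 75.7% of all genes passed (51% higher and 24.7% lower). In liver against lung 21 genes were higher and 3 lower, where 88% of all genes passed (13.5% higher and 74.5% lower). The 20 most abundant genes held 29.2% to 37.5% of all TPM in a library. The median log2 difference of all genes tested was -0.68 in liver against colon, 0.35 in lung against colon and -1.10 in liver against lung. The medians of the 27 pathway genes were 0.50, -0.56 and 1.32 in the same order of contrasts, each on the other side of 0 from the median of all genes, and the first of them was 0.32 without vehicle liver 2. When libraries were scaled by the median ratio of their genes, the medians of all genes moved to -0.11, 0.087 and -0.24, and those of the pathway genes to 1.29, -0.85 and 2.40. On that scale 20 genes were higher and 3 lower in liver against colon, 1 higher and 19 lower in lung against colon, and 24 higher and 2 lower in liver against lung.

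**Figure D1:**
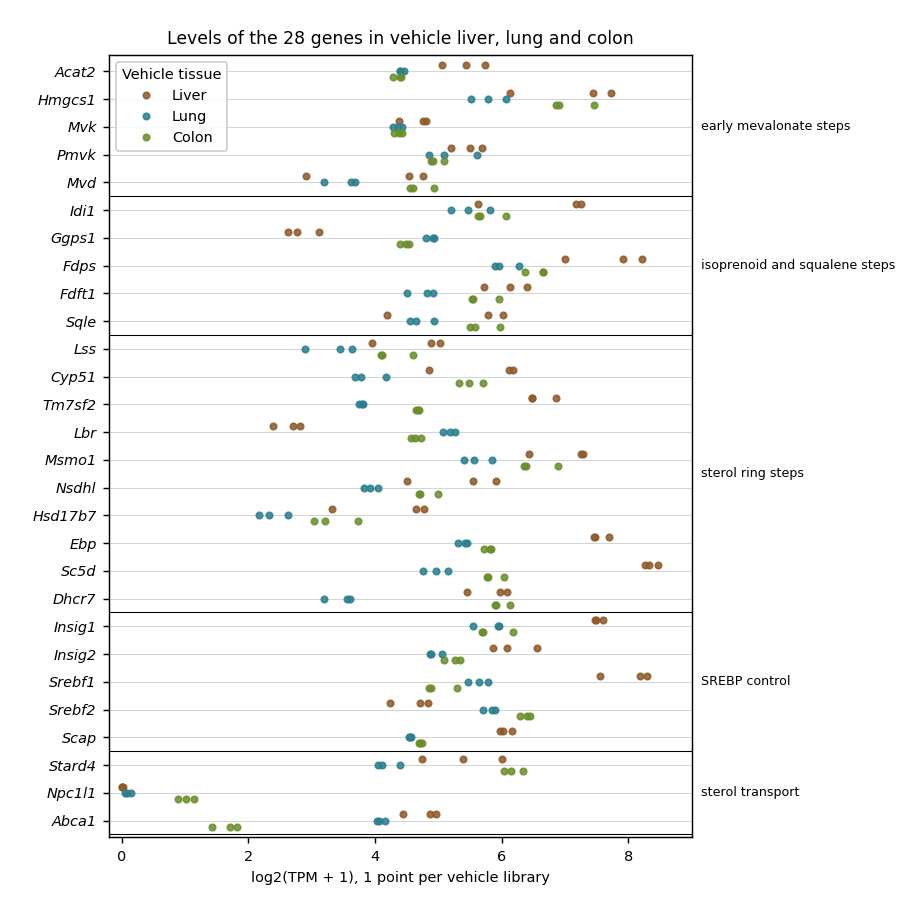
Level of each of the 28 genes in the vehicle libraries, as log2(TPM + 1) on the x axis, with 1 point per library and the tissues told apart by colour. Genes are grouped by their role on the y axis. Most genes have their highest points in liver and their lowest in lung, while Ggps1, Lbr, Srebf2 and Npc1l1 are lowest in liver.

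The early enzymes, which make mevalonate and turn it into isopentenyl pyrophosphate, differed by at most 2.76-fold between tissue means, the widest gap being that of Hmgcs1 between liver and lung. Hmgcs1, the cytosolic enzyme that makes HMG-CoA, had 69.4, 211 and 174 TPM in the vehicle livers, 44.9, 54.1 and 65.8 TPM in the vehicle lungs and 115, 175 and 119 TPM in the vehicle colons. Vehicle liver 1 was nearer to the lungs than to the other livers, and all livers and colons were above all lungs. Liver exceeded lung by 1.32 on the log2 scale (limma, adjusted p = 0.00816), and the difference was -1.29 in lung against colon (limma, adjusted p = 0.0114), while liver and colon did not differ beyond their spread (0.03, limma, adjusted p = 0.949). Acat2, which joins acetyl-CoA units, averaged 42.4 ± 10.1 TPM in liver, 20.3 ± 0.503 TPM in lung and 19.6 ± 0.931 TPM in colon, and was higher in liver than in either of the others (limma, adjusted p = 0.000135 against colon). The kinases Mvk and Pmvk averaged 24.1 and 43.5 TPM in liver, 19.5 and 36.3 TPM in lung, and 19.7 and 30.1 TPM in colon. Mvd, which decarboxylates mevalonate pyrophosphate, averaged 18.2 ± 10.3 TPM in liver, 10.4 ± 2.01 TPM in lung and 25.1 ± 3.76 TPM in colon, and its liver-to-colon difference changed sign with scaling (-0.63 as deposited, 0.13 after median ratio scaling, neither past the threshold).

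Of the isoprenoid and squalene enzymes, Ggps1 had a tissue order of its own. It makes geranylgeranyl pyrophosphate, used to anchor proteins in membranes, and is a branch off the route to sterols. Ggps1 had 5.15, 7.64 and 5.7998 TPM in the vehicle livers, 27.0009, 29.3 and 29.4 TPM in the vehicle lungs and 20.1, 21.3 and 22.1 TPM in the vehicle colons, with no overlap between liver and the other tissues. Its difference was -1.64 in liver against colon and -2.05 in liver against lung (limma, adjusted p = 1.57e-06 and 2.31e-07), and both stayed past the threshold after median ratio scaling, whereas the lung-to-colon difference of 0.41 did not. Fdps, which makes farnesyl pyrophosphate, averaged 221 ± 85.9 TPM in liver, 65.2 ± 9.42 TPM in lung and 93.6 ± 10.6 TPM in colon. Idi1, the isomerase before it, averaged 115 ± 57.6, 44.7 ± 9.80028 and 54.7 ± 9.904 TPM in the same tissues, and Fdft1, squalene synthase, averaged 67.9 ± 15.8, 26.04 ± 3.91 and 50.8 ± 9.07 TPM. Sqle, the squalene epoxidase that helps set the rate of the pathway, had 17.2, 63.7 and 54.2 TPM in the vehicle livers, 22.4, 24.1 and 29.5 TPM in the vehicle lungs and 46.9, 61.8 and 44.1 TPM in the vehicle colons. Vehicle liver 1 was below every lung and colon, and Sqle was the one gene tested for which none of the 3 tissue contrasts passed the threshold (after median ratio scaling, liver against lung and lung against colon did).

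Among the enzymes, those of the sterol ring held the widest tissue differences. Sc5d, a sterol desaturase late in the pathway, had 319, 355 and 308 TPM in the vehicle livers, 26.02, 30.3 and 34.7 TPM in the vehicle lungs and 53.9, 64.6 and 53.6 TPM in the vehicle colons, and was 10.8-fold higher by mean in liver than in lung. The difference was 3.396 ± 0.12 (SE) on the log2 scale (limma, adjusted p = 8.87e-09), and every liver was far above every other library. Dhcr7, which carries out the last reduction to cholesterol on one route, had 42.8, 67.2 and 61.5 TPM in the vehicle livers, 8.19, 10.7 and 11.2 TPM in the vehicle lungs and 68.9, 58.5 and 58.8 TPM in the vehicle colons. Lung stood apart below both others, and lung against colon was -2.52 ± 0.17 (limma, adjusted p = 1.08e-06), while liver and colon overlapped. Their difference of -0.14 became 0.66 and passed after median ratio scaling.

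Tm7sf2 and Lbr encode sterol reductases with the same activity, Lbr being also a protein of the inner nuclear membrane, and their tissue patterns were opposite. Tm7sf2 had 88.3, 115 and 87.98 TPM in the vehicle livers, 12.9, 12.96 and 12.4 TPM in the vehicle lungs and 24.99, 24.04 and 24.7 TPM in the vehicle colons. Lbr had 4.26, 5.52 and 6.0002 TPM in the vehicle livers, 35.1, 37.5 and 32.7 TPM in the vehicle lungs and 22.8, 23.9 and 25.4 TPM in the vehicle colons. All livers were above all other libraries for Tm7sf2 and below all of them for Lbr. In liver against lung the differences were 2.82 for Tm7sf2 and -2.54 for Lbr (limma, adjusted p = 1.29e-08 and 4.11e-08), and both kept their sign and their call after median ratio scaling. Cyp51, the lanosterol demethylase that acts just before these reductases, had 27.8, 71.8 and 68.3 TPM in the vehicle livers, 11.8, 12.7 and 17.1 TPM in the vehicle lungs and 43.97, 51.1 and 38.9 TPM in the vehicle colons. Lungs were lowest without overlap, at -1.63 ± 0.32 in lung against colon (limma, adjusted p = 0.0014), and vehicle liver 1 fell below the colons. Mean levels of the remaining 5 ring enzymes, Lss, Msmo1, Nsdhl, Hsd17b7 and Ebp, followed liver, colon, lung, and all 5 were higher in liver than in lung and lower in lung than in colon past the threshold.

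The SREBP genes had opposite tissue patterns. Srebf1, which encodes the SREBP1 proteins, had 186, 314 and 289 TPM in the vehicle livers, 43.4, 48.8 and 54.1 TPM in the vehicle lungs and 28.01, 28.6 and 38.4 TPM in the vehicle colons. Srebf2, which encodes SREBP2, had 17.8, 25.1 and 27.7 TPM in the vehicle livers, 51.3, 56.7 and 58.6 TPM in the vehicle lungs and 77.6, 83.4 and 86.1 TPM in the vehicle colons. For Srebf1 every liver was above every lung and colon, and for Srebf2 every liver was below them. Srebf1 was higher in liver than in colon by 2.99 ± 0.20 (limma, adjusted p = 7.29e-07), and the difference of Srebf2 was -1.78 ± 0.14 (limma, adjusted p = 2.6e-06). Both calls held after median ratio scaling, whereas that scaling ended the call for Srebf2 in liver against lung (-1.22 as deposited, -0.15 after scaling) and for Srebf1 in lung against colon (0.62 and 0.33). The call for Srebf1 in lung against colon was also lost without vehicle lung 3 (0.54), vehicle colon 1 (0.54) or vehicle colon 2 (0.55). The ratio of Srebf1 to Srebf2 in TPM, which is per transcript length, was 10.4 to 12.5 in the vehicle livers, 0.847 to 0.924 in the vehicle lungs and 0.343 to 0.446 in the vehicle colons.

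Scap, the escort of the SREBPs, had 70.8, 62.1 and 63.96 TPM in the vehicle livers, 22.6, 22.8 and 22.2 TPM in the vehicle lungs and 24.8, 25.2 and 25.8 TPM in the vehicle colons. Insig1, an INSIG protein whose gene is itself an SREBP target, had 178, 193 and 178 TPM in the vehicle livers, 45.6, 61.2 and 60.5 TPM in the vehicle lungs and 51.1, 71.7 and 50.4 TPM in the vehicle colons. Insig2, the other INSIG gene, had 57.2, 66.6 and 93.2 TPM in the vehicle livers, 28.4, 28.2 and 32.4 TPM in the vehicle lungs and 32.9, 39.6 and 37.2 TPM in the vehicle colons. All 3 were highest in liver without overlap, and none of them differed between lung and colon past the threshold as deposited, while after median ratio scaling Scap and Insig2 were lower in lung. Liver against colon was 1.34 for Scap, 1.67 for Insig1 and 0.94 for Insig2, all past the threshold (limma, adjusted p = 1.26e-07, 6.82e-06 and 0.000513).

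Of the sterol carriers, Abca1 had the highest ratio between tissue means of TPM among the 27 genes tested, while on the log2 scale Sc5d differed more. Abca1 had 20.8, 30.2 and 28.3 TPM in the vehicle livers, 15.7, 16.7 and 15.3 TPM in the vehicle lungs and 2.25, 1.68 and 2.52 TPM in the vehicle colons, a 12.3-fold ratio of liver to colon by mean. Colon was lowest without overlap, and the difference was 3.12 ± 0.15 in liver against colon and 2.43 ± 0.15 in lung against colon (limma, adjusted p = 8.87e-08 and 5.47e-07). Stard4, which moves cholesterol between membranes inside the cell, had 25.9, 40.99 and 63.3 TPM in the vehicle livers, 15.5, 16.3 and 19.9997 TPM in the vehicle lungs and 64.4, 79.9 and 70.3 TPM in the vehicle colons. Every colon was above every liver and lung, but the call in liver against colon (-0.79, limma, adjusted p = 0.0218) was lost after median ratio scaling, where limma gave an adjusted p of 1, and without vehicle colon 2, where the difference was -0.71. Npc1l1, which takes up cholesterol in the gut, was listed at 0, 0 and 0.01 TPM in the vehicle livers, at 0.11, 0.06 and 0.04 TPM in the vehicle lungs and at 1.01, 0.84 and 1.21 TPM in the vehicle colons, so that only colon came near 1 TPM.

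RECTAS was then set against vehicle within each tissue, and 0 of 27 genes in liver, 0 of 27 in lung and 0 of 28 in colon passed the threshold in limma. Over all genes tested the share called was 0.0167% in liver, 0.00637% in lung and 0% in colon. At an unadjusted p under 0.05, there were 2 pathway genes in liver, 1 in lung and 0 in colon, against 11.6%, 12.6% and 1.62% of all genes in these tissues. The alternatives run, which changed the pseudocount, the filter, the scaling, the fit or the libraries, also called 0 of these genes. Most log2 differences were positive in each tissue, more often than over all genes. When 1 library was left out, their median was smallest without vehicle liver 1, vehicle lung 1 and RECTAS colon 1.

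**Figure D2:**
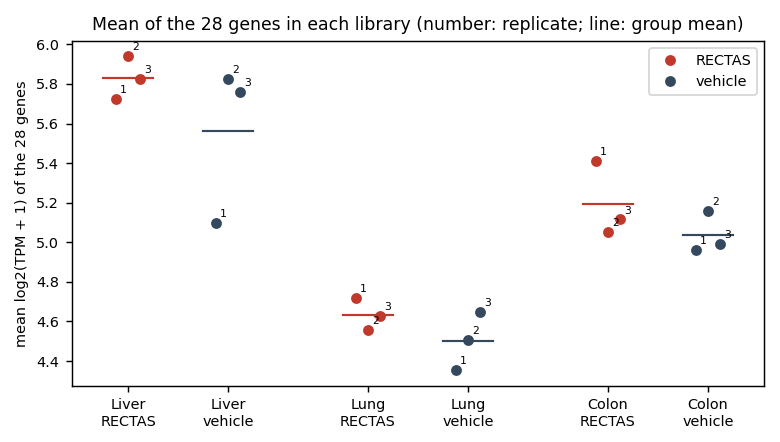
Mean of log2(TPM + 1) over the 28 genes (y axis) in each of the 18 libraries, with RECTAS left of vehicle in each tissue, the replicate number beside each point and a line at the group mean. Vehicle liver 1 at 5.10 lies below the other livers, RECTAS colon 1 at 5.41 lies above the other colons, and in no tissue are the groups apart.

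In liver, the mean of log2(TPM + 1) over the 28 genes was 5.72, 5.94 and 5.83 under RECTAS, against 5.10, 5.83 and 5.76 under vehicle. The summed TPM of the genes was 2495, 2871 and 2772 under RECTAS, against 1788, 2752 and 2533 under vehicle. Both measures put vehicle liver 1 below all other livers, and the groups overlapped through vehicle livers 2 and 3. Of 27 genes tested, 20 had a positive log2 difference and 7 a negative one, with a median of 0.25, against a median of -0.04 and 40% positive over all genes tested. Without vehicle liver 1 the median of the pathway genes was 0.058 with 19 of 27 positive, and without vehicle liver 1 and RECTAS liver 2, the lowest and the highest by that mean, it was -0.010 with 13 of 27 positive, the second of these fits being chosen after seeing the data. Every RECTAS liver was above every vehicle liver for 1 gene, Insig1 (5.75% of all genes), and below for 1 gene, Scap (13% of all genes).

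The widest spread among vehicle livers was in Mvd, Sqle, Idi1 and Hmgcs1. Sqle had 62.99, 85.98 and 71.04 TPM in the RECTAS livers, against 17.2, 63.7 and 54.2 TPM in the vehicle livers. Hmgcs1 had 179, 241 and 182 TPM in the RECTAS livers, against 69.4, 211 and 174 TPM in the vehicle livers. Mvd had 19.8, 41.7 and 33.7 TPM in the RECTAS livers, against 6.48, 22.1 and 25.98 TPM in the vehicle livers. In each of these genes vehicle liver 1 was far below the other 5 livers, which overlapped. Relative to the mean of the other vehicle livers, vehicle liver 1 was at 0.291 for Sqle, 0.360 for Hmgcs1, 0.269 for Mvd and 0.326 for Idi1. The log2 differences were 0.88 ± 0.45 (SE) for Sqle, 0.54 ± 0.39 for Hmgcs1 and 0.91 ± 0.50 for Mvd, with limma adjusted p-values of 0.502, 0.623 and 0.529. Without vehicle liver 1 the same differences were 0.30, 0.05 and 0.33. Within the vehicle group the highest library exceeded the lowest more than 2-fold for 10 of 27 genes, whereas in the RECTAS group this held for 1 gene, Mvd, at 2.11-fold. Vehicle liver 1 was the lowest vehicle library for each of these 10 genes, and the count was not made over all genes.

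Pmvk, phosphomevalonate kinase, was one of the 2 genes with an unadjusted p under 0.05. It had 49.5, 55.05 and 57.3 TPM in the RECTAS livers, against 35.6, 50.4 and 44.3 TPM in the vehicle livers, and vehicle liver 2 lay between RECTAS livers 1 and 2. The difference was 0.32 ± 0.13 (limma, adjusted p = 0.43), and 0.18 without vehicle liver 1. The 2 remaining genes of the early group, Acat2 and Mvk, both differed by 0.25. Of the isoprenoid genes, Idi1, Fdps and Fdft1 differed by 0.60, 0.32 and 0.24, and Ggps1 by -0.20, none past the threshold.

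Among the ring enzymes, 8 of 10 had higher means under RECTAS. Lss, lanosterol synthase, had 28.5, 50.5 and 36.01 TPM in the RECTAS livers, against 14.5, 31.7 and 28.5 TPM in the vehicle livers. Tm7sf2 had 107, 114 and 120.0 TPM in the RECTAS livers, against 88.3, 115 and 87.98 TPM in the vehicle livers. Vehicle liver 1 was lowest for Lss, and vehicle liver 2 lay among the RECTAS libraries for both genes. Their differences were 0.64 ± 0.32 and 0.24 ± 0.12 (limma, adjusted p = 0.491 and 0.495). Cyp51, Nsdhl and Hsd17b7, all low in vehicle liver 1, differed by 0.59, 0.59 and 0.61, and Msmo1 and Dhcr7 both by 0.32. Sc5d and Ebp, which are highly expressed in liver, were close to level, at -0.04 with an interval of -0.24 to 0.16 and -0.05 with an interval of -0.26 to 0.16 (95%), and vehicle liver 1 was not the lowest vehicle library for either of them. Lbr differed by 0.04.

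Insig1 was the one gene with all RECTAS livers above all vehicle livers, and vehicle liver 1 was not its lowest vehicle library. It had 208, 268 and 359.6 TPM in the RECTAS livers, against 178, 193 and 178 TPM in the vehicle livers. The vehicle livers lay within 1.09-fold of each other and all RECTAS livers were above them, spread over 1.73-fold with RECTAS liver 3 the highest. The ratio of means was 1.52-fold and the log2 difference 0.57 ± 0.18, with a 95% interval of 0.14 to 1.004 (limma, adjusted p = 0.357). It was 0.55 without vehicle liver 1, and 0.37 without RECTAS liver 3, its lowest value when 1 library was left out. Insig1 lies on chromosome 5 at 28071363 to 28078662 of GRCm38. Insig2 had 94.98, 86.02 and 66.2 TPM in the RECTAS livers, against 57.2, 66.6 and 93.2 TPM in the vehicle livers, which overlapped. Its difference was 0.20 ± 0.20 (limma, adjusted p = 0.738).

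Scap was the other gene with separate groups, in the opposite direction. It had 61.8, 59.0004 and 56.5 TPM in the RECTAS livers, against 70.8, 62.1 and 63.96 TPM in the vehicle livers, with a gap of less than 1 TPM between RECTAS liver 1 and vehicle liver 2. The difference was -0.15 ± 0.08 (limma, adjusted p = 0.525), and -0.09 without vehicle liver 1. Srebf1 had 217, 185 and 242 TPM in the RECTAS livers, against 186, 314 and 289 TPM in the vehicle livers. Srebf2 had 24.5, 31.3 and 25.6 TPM in the RECTAS livers, against 17.8, 25.1 and 27.7 TPM in the vehicle livers. Vehicle liver 1 was the lowest vehicle library for both, and the groups overlapped. The differences were -0.26 ± 0.20 for Srebf1 and 0.21 ± 0.17 for Srebf2 (limma, adjusted p = 0.645 and 0.666), and that of Srebf1 was -0.49 without vehicle liver 1. The ratio of Srebf1 to Srebf2 was 8.85, 5.92 and 9.48 in the RECTAS livers, against 10.4, 12.5 and 10.4 in the vehicle livers, apart between the groups. This ratio was formed after the values were seen and was not tested.

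Of the carriers, Stard4 and Abca1 had lower means under RECTAS, with overlapping groups. Stard4 had 38.4, 38.6 and 32.3 TPM in the RECTAS livers, against 25.9, 40.99 and 63.3 TPM in the vehicle livers, where the vehicle libraries spanned all RECTAS values. Abca1 had 31.2, 19.02 and 19.3 TPM in the RECTAS livers, against 20.8, 30.2 and 28.3 TPM in the vehicle livers, with RECTAS liver 1 the highest of all 6. The differences were -0.16 ± 0.29 and -0.20 ± 0.22 (limma, adjusted p = 0.864 and 0.754). That of Stard4 was 0.15 without vehicle liver 3 and -0.48 without vehicle liver 1. Npc1l1 was listed at 0, 0 and 0.01 TPM in the RECTAS livers and at the same values in the vehicle livers, and was not tested.

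**Figure D3:**
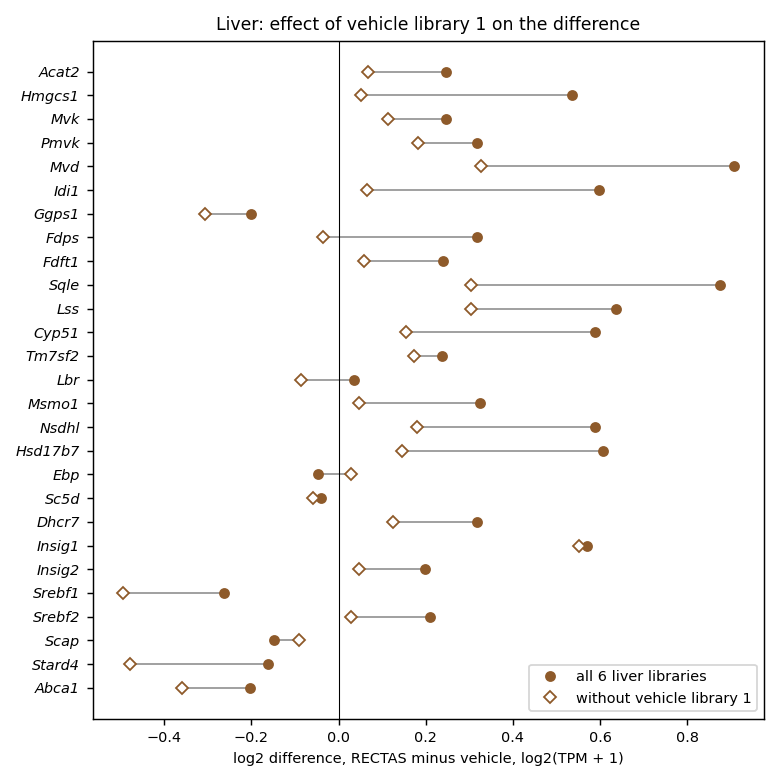
Log2 difference of RECTAS minus vehicle in liver on the x axis for the 27 genes tested, from all 6 libraries (filled circles) and without vehicle liver 1 (open diamonds). The diamonds of Hmgcs1, Idi1 and Fdps lie near 0, that of Insig1 at 0.55 lies beside its circle at 0.57, and that of Srebf1 at -0.49 lies below its circle.

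In lung the pathway's libraries overlapped between the groups. The mean of log2(TPM + 1) over the 28 genes was 4.72, 4.56 and 4.63 in the RECTAS lungs, against 4.35, 4.51 and 4.65 in the vehicle lungs. The lowest value was that of vehicle lung 1, and vehicle lung 3 lay among the RECTAS lungs. Of 27 genes tested, 25 had a positive difference, with a median of 0.13, against a median of 0.058 and 65.4% positive over all genes, while after median ratio scaling 20 of 27 were positive with a median of 0.063. Of the vehicle lungs, library 1 was the lowest for 21 of 27 genes, against 28.7% of all genes tested in lung. Library 3 was the highest of them for 22 of 27, against 30.8% of all genes. Of the RECTAS lungs, library 2 was the lowest for 19 of 27, against 26.8% of all genes. Without vehicle lung 1 the median was 0.061 with 18 positive. Vehicle lung 3 and RECTAS lung 3 also held the most hepatocyte RNA of their groups, and without these libraries the median was 0.17 with 24 of 27 positive, an alternative chosen after seeing the data. The summed levels of alveolar and airway markers did not overlap between the groups. The alveolar sum over 6 genes was 45094, 42672 and 46501 TPM in RECTAS lungs, against 41360, 38220 and 41028 TPM in vehicle lungs. Of its genes, 3 were apart and higher, where 16.1% of all genes were, and the others overlapped. Sftpc, its most abundant gene, was barely apart, with 31816 TPM in RECTAS lung 2 against 31807 TPM in vehicle lung 1. The airway sum over 3 genes was 124697, 121689 and 117519 TPM in RECTAS lungs, against 139962, 135945 and 152818 TPM in vehicle lungs. Most of it was 1 gene, Scgb1a1, at 121803, 118439 and 114921 TPM against 136561, 132818 and 149107 TPM. Scgb1a1 was apart and lower, where 3.18% of all genes were, while the other airway genes, Cyp2f2 and Foxj1, overlapped. The part of these shifts in the differences of the pathway genes was not tested.

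Pmvk had the smallest p of the list in lung. It had 53.9, 53.7 and 54.3 TPM in the RECTAS lungs, against 27.9, 33.1 and 47.96 TPM in the vehicle lungs. The RECTAS libraries lay within 1.01-fold of each other and above all vehicle libraries, of which vehicle lung 3 came closest. The ratio of means was 1.49-fold and the log2 difference 0.59 ± 0.18, with a 95% interval of 0.17 to 1.02 (limma, adjusted p = 0.309). It was 0.53 after median ratio scaling and between 0.43 and 0.81 when 1 library was left out. Pmvk lies on chromosome 3 at 89454541 to 89469013 of GRCm38. Vehicle lung 3, the vehicle lung with the most Pmvk, also had the highest hepatocyte sum, at 1489 TPM. In the vehicle livers that sum was 97587 to 112473 TPM, and Pmvk averaged 43.5 TPM. The part of hepatocyte RNA in the lung values of Pmvk was not tested. Without vehicle lung 3 and RECTAS lung 3 the difference was 0.80.

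Acat2 was the other gene with separate lung groups, where 16.1% of all genes had every RECTAS value above every vehicle value, and 0 genes of the list were apart and lower (3.18% of all genes). It had 23.9, 21.1 and 24.02 TPM in the RECTAS lungs, against 20.04, 20.1 and 20.9 TPM in the vehicle lungs, with a gap of less than 1 TPM between them. The difference was 0.17 ± 0.07 (limma, adjusted p = 0.407). Mvk had 24.9, 21.9 and 19.8 TPM in the RECTAS lungs, against 18.5, 19.6 and 20.4 TPM in the vehicle lungs, and RECTAS lung 3 overlapped the vehicle group. Its difference was 0.18 ± 0.09 (limma, adjusted p = 0.485). Hmgcs1 had 65.8, 54.1 and 60.3 TPM in the RECTAS lungs, against 44.9, 54.1 and 65.8 TPM in the vehicle lungs, spanning the same range but for vehicle lung 1, and differed by 0.14 ± 0.14 (limma, adjusted p = 0.705).

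Sqle had 27.8, 24.2 and 24.7 TPM in the RECTAS lungs, against 22.4, 24.1 and 29.5 TPM in the vehicle lungs, and its difference of 0.02 ± 0.11 became -0.05 after median ratio scaling and -0.04 after rescaling without the most abundant genes. Hsd17b7, a ketoreductase of the ring steps, had 5.48, 5.0002 and 4.92 TPM in the RECTAS lungs, against 3.47, 4.03 and 5.19 TPM in the vehicle lungs. Vehicle lung 3 alone lay within the RECTAS range, and the difference was 0.24 ± 0.14 (limma, adjusted p = 0.5). The other 9 ring enzymes differed by 0.01 for Tm7sf2 to 0.27 for Lss, all positive as deposited, and after median ratio scaling those of Tm7sf2, Msmo1, Nsdhl and Dhcr7 were negative, at -0.06 to -0.01.

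Among the lung regulators, Scap had 30.5, 31.6 and 22.3 TPM in the RECTAS lungs, against 22.6, 22.8 and 22.2 TPM in the vehicle lungs. RECTAS lungs 1 and 2 stood above the tight vehicle group and RECTAS lung 3 lay inside it. The difference was 0.29 ± 0.13 (limma, adjusted p = 0.417), and without RECTAS lung 3 it was 0.44. Srebf2 had 66.4, 68.1 and 56.2 TPM in the RECTAS lungs, against 51.3, 56.7 and 58.6 TPM in the vehicle lungs, with the same library inside the vehicle range. Its difference was 0.19 ± 0.09 (limma, adjusted p = 0.448). Srebf1 had 60.8, 54.03 and 50.3 TPM in the RECTAS lungs, against 43.4, 48.8 and 54.1 TPM in the vehicle lungs, and differed by 0.17 ± 0.10 (limma, adjusted p = 0.529), RECTAS lungs 2 and 3 lying in the vehicle range.

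Insig1 had 64.3, 45.6 and 51.7 TPM in the RECTAS lungs, against 45.6, 61.2 and 60.5 TPM in the vehicle lungs, a difference of -0.05 ± 0.16 with a 95% interval of -0.43 to 0.32. Insig2 had 31.2, 35.1 and 31.4 TPM in the RECTAS lungs, against 28.4, 28.2 and 32.4 TPM in the vehicle lungs, a difference of 0.13 ± 0.08. Both overlapped, and neither passed (limma, adjusted p = 0.911 and 0.539). Stard4 had 15.9, 15.4 and 18.4 TPM in the RECTAS lungs, against 15.5, 16.3 and 19.9997 TPM in the vehicle lungs, and Abca1 had 17.3, 13.7 and 22.7 TPM in the RECTAS lungs, against 15.7, 16.7 and 15.3 TPM in the vehicle lungs. Abca1 varied more among the RECTAS lungs than among the vehicle lungs, and the differences were -0.05 ± 0.11 and 0.13 ± 0.16 (limma, adjusted p = 0.875 and 0.759). Npc1l1 was listed at 0.1, 0.13 and 0.04 TPM in the RECTAS lungs and 0.11, 0.06 and 0.04 TPM in the vehicle lungs, and was not tested.

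In colon the mean over the 28 genes was 5.41, 5.05 and 5.12 in the RECTAS colons, against 4.96, 5.16 and 4.99 in the vehicle colons, with RECTAS colon 1 the highest of all 6. That library was the highest of its group for 23 of 28 genes, against 35.7% of all genes tested in colon. Of 28 genes tested, 24 had a positive difference, with a median of 0.16, against a median of 0.018 and 57.2% positive over all genes, and 22 of 27 were positive after median ratio scaling. Without RECTAS colon 1 the median was 0.046 with 19 of 28 positive. No gene of the list had separate groups, whereas 3.43% of all genes were apart and higher and 2.01% apart and lower. The smooth muscle sum given above was highest in vehicle colon 1, and its part in these differences was not tested.

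**Figure D4:**
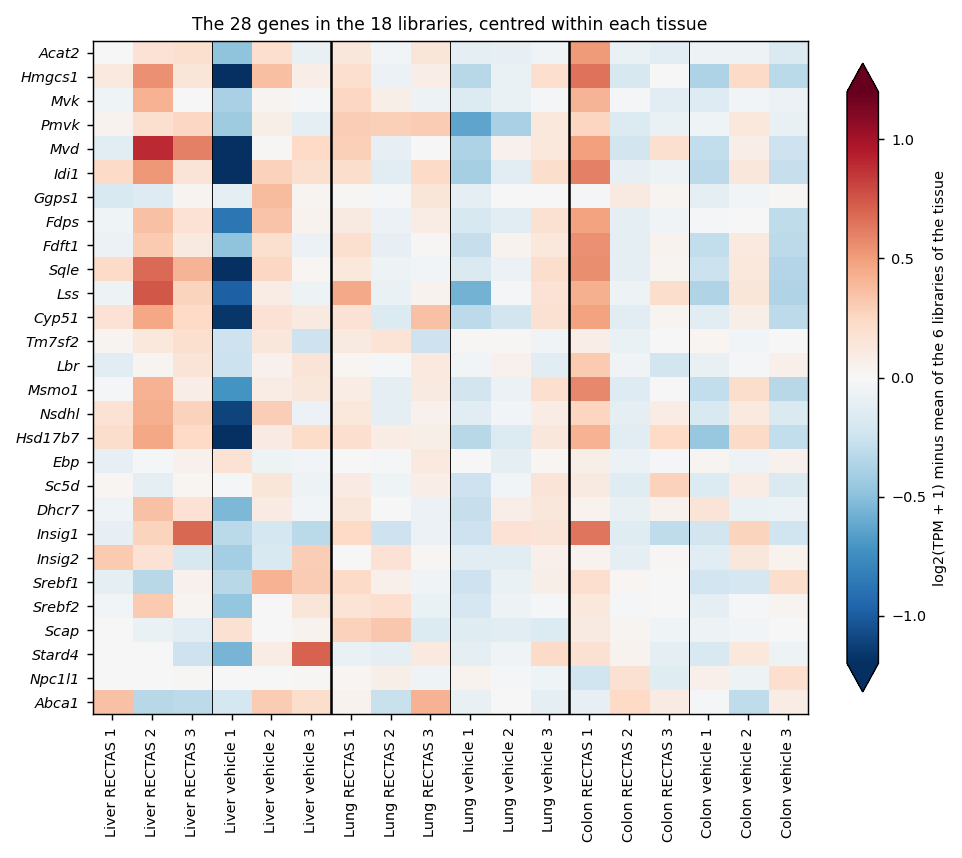
Each of the 28 genes (y axis) in each of the 18 libraries (x axis), coloured by log2(TPM + 1) minus the mean of the 6 libraries of its tissue, with RECTAS left of vehicle in each tissue. Vehicle liver 1 is blue for most enzymes, RECTAS colon 1 is red for most of them, and Ebp, Scap and Sc5d are not at their lowest in vehicle liver 1.

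Lss had the smallest p in colon, with 28.7, 20.05 and 24.5 TPM in the RECTAS colons, against 16.2, 23.3 and 16.1 TPM in the vehicle colons. Vehicle colon 2 lay among the RECTAS libraries, and the difference was 0.39 ± 0.18 with a 95% interval of -0.05 to 0.82 (limma, adjusted p = 1). Fdft1 had 83.02, 52.3 and 58.2 TPM in the RECTAS colons, against 45.8, 61.2 and 45.2 TPM in the vehicle colons. Sqle had 83.3, 52.1 and 57.8 TPM in the RECTAS colons, against 46.9, 61.8 and 44.1 TPM in the vehicle colons. In both, RECTAS colon 1 was highest and vehicle colon 2 came second, and the differences were 0.33 ± 0.19 and 0.32 ± 0.20 (limma, adjusted p = 1 for each).

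Mvd had 39.6, 23.7 and 31.8 TPM in the RECTAS colons, against 22.6, 29.4 and 23.3 TPM in the vehicle colons. Hsd17b7 had 14.1, 9.29 and 12.3 TPM in the RECTAS colons, against 7.24, 12.2 and 8.23 TPM in the vehicle colons. Cyp51 had 68.1, 44.4 and 49.5 TPM in the RECTAS colons, against 43.97, 51.1 and 38.9 TPM in the vehicle colons. Each had RECTAS colon 1 on top and overlapping groups, with differences of 0.31 ± 0.19, 0.35 ± 0.22 and 0.25 ± 0.17. Hmgcs1 had 235, 130.2 and 149.8 TPM in the RECTAS colons, against 115, 175 and 119 TPM in the vehicle colons, and differed by 0.31 ± 0.25. The remaining enzymes differed by -0.02 for Ebp to 0.30 for Idi1.

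The colon regulators were nearer to level. Insig1 had 93.6, 53.8 and 47.96 TPM in the RECTAS colons, against 51.1, 71.7 and 50.4 TPM in the vehicle colons, and RECTAS colon 1 was 1.84 times the mean of the other RECTAS colons. Its difference was 0.13 ± 0.26, and -0.16 without RECTAS colon 1. Insig2 had 37.2, 33.5 and 36.5 TPM in the RECTAS colons, against 32.9, 39.6 and 37.2 TPM in the vehicle colons, with the vehicle values spanning the RECTAS values. Srebf1 had 38.3, 33.6 and 33.01 TPM in the RECTAS colons, against 28.01, 28.6 and 38.4 TPM in the vehicle colons, where vehicle colon 3 was the highest of all. Srebf2 had 92.2, 83.4 and 83.9 TPM in the RECTAS colons, against 77.6, 83.4 and 86.1 TPM in the vehicle colons. Scap had 28.1, 26.6 and 24.96 TPM in the RECTAS colons, against 24.8, 25.2 and 25.8 TPM in the vehicle colons. These groups overlapped, and the 95% intervals were -0.26 to 0.20 for Insig2, -0.17 to 0.47 for Srebf1, -0.12 to 0.26 for Srebf2 and -0.13 to 0.26 for Scap.

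Stard4 had 83.2, 75.6 and 67.9 TPM in the RECTAS colons, against 64.4, 79.9 and 70.3 TPM in the vehicle colons. Abca1 had 2.1001, 2.9001 and 2.55 TPM in the RECTAS colons, against 2.25, 1.68 and 2.52 TPM in the vehicle colons. Npc1l1, which passed the filter only in colon, had 0.63, 1.19 and 0.74 TPM in the RECTAS colons, against 1.01, 0.84 and 1.21 TPM in the vehicle colons. All 3 overlapped, with differences of 0.08 ± 0.11, 0.16 ± 0.17 and -0.13 ± 0.18 (limma, adjusted p = 1 for each), and a log2(TPM + 1) difference understates the change of a gene as low as Npc1l1.

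**Figure D5:**
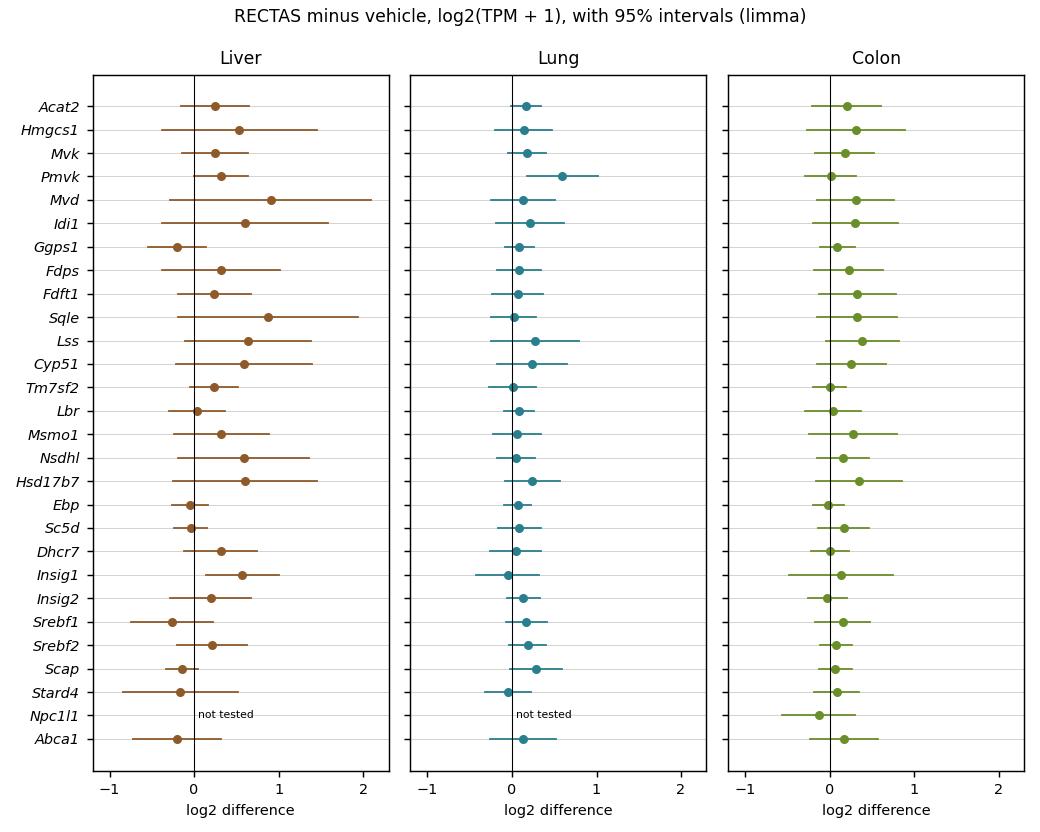
Log2 difference of RECTAS minus vehicle on log2(TPM + 1) (x axis) for each of the 28 genes (y axis) in liver, lung and colon, with 95% intervals from limma. Points lie right of 0 for 20 of 27 genes in liver, 25 of 27 in lung and 24 of 28 in colon, and the intervals exclude 0 only for Insig1 and Pmvk in liver and Pmvk in lung, before adjustment over all genes.

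Across tissues, 17 of the 27 genes tested in all 3 had a positive difference in each, and 0 had a negative one in each, against 22% and 10.7% of all 10753 genes tested in the 3 tissues. After median ratio scaling the counts were 12 and 0, against 17.9% and 16.2% of 10736 genes. The libraries of the tissues were separate, although the animals may not have been. Genes of 1 library are not separate observations, and the list was chosen with earlier results of these data known. The median of the list fell to 0.058 without vehicle liver 1, 0.061 without vehicle lung 1 and 0.046 without RECTAS colon 1. The tissues' RECTAS effects were compared as interactions in 1 limma fit of the 18 libraries. None of the 28 genes passed (0 called in each of 3 contrasts), where 0.0228% of all genes passed in liver minus lung, 0.0285% in liver minus colon and 0.0114% in lung minus colon. Npc1l1 entered this fit through colon libraries alone. It was at most 0.01 TPM in liver and 0.13 TPM in lung, so its liver-minus-lung test could not show a difference. At an unadjusted p under 0.05 stood Scap in liver minus lung, at -0.44 ± 0.14 (limma, adjusted p = 0.359), and Pmvk in lung minus colon, at 0.59 ± 0.23 (limma, adjusted p = 1). At that level stood 8.98% of all genes in liver minus lung and 3.22% in lung minus colon, and in liver minus colon 0 genes of the list against 5.37% of all genes.

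Genes that neighbour the pathway were read from 7 further lists, chosen with earlier results of these data known. None of their genes passed the threshold in any tissue under RECTAS. The lists overlap the pathway genes: Stard4 was also counted among the further SREBP2 targets, and Abca1 and Srebf1 among the LXR targets. Acss2 was counted in both the SREBP2 list and the fatty acid list. In liver, 12 of 16 fatty acid synthesis and SREBP1 target genes were positive with a median of 0.16 (13 of 16 and 0.20 after median ratio scaling), and this list too was low in vehicle liver 1. Its mean of log2(TPM + 1) was 6.55, 6.28 and 6.80 in the RECTAS livers, against 5.65, 6.64 and 6.46 in the vehicle livers. Me1, malic enzyme, had 104, 68.6 and 108 TPM in the RECTAS livers, against 17.3, 79.05 and 51.5 TPM in the vehicle livers. Thrsp, a lipogenic gene responsive to carbohydrate, had 764, 969 and 1259 TPM in the RECTAS livers, against 151, 703 and 947 TPM in the vehicle livers. Vehicle liver 1 was again the lowest of all livers for both, with differences of 1.12 ± 0.51 and 1.07 ± 0.64 (limma, adjusted p = 0.454 and 0.555).

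Soat2, which esterifies cholesterol in liver and gut, had the smallest p of these lists. It had 15.9, 14.8 and 14.9 TPM in the RECTAS livers, against 23.7, 22.7 and 20.7 TPM in the vehicle livers, with all RECTAS values below all vehicle values. The difference was -0.53 ± 0.08 (limma, adjusted p = 0.15), and the adjusted p ran between 0.0475, in 1 fit of all 18 libraries, and 0.492 over its alternatives. Ube2g2, a ubiquitin-conjugating enzyme of sterol-controlled degradation, had 21.8, 25.1 and 24.3 TPM in the RECTAS livers, against 14.4, 17.8 and 18.2 TPM in the vehicle livers, also apart, at 0.48 ± 0.11 (limma, adjusted p = 0.254). Abcg1, an LXR target that exports cholesterol, had 1.42, 1.36 and 1.59 TPM in the RECTAS livers, against 2.45, 1.72 and 2.24 TPM in the vehicle livers, and Osbpl9, a sterol-binding protein, had 61.4, 60.1 and 59.1 TPM in the RECTAS livers, against 74.8, 72.8 and 68.4 TPM in the vehicle livers. Both were apart and lower, at -0.35 ± 0.13 and -0.25 ± 0.07 (limma, adjusted p = 0.391 and 0.297). Over all genes tested in liver, 13% were apart and lower and 5.75% apart and higher. In the other liver lists, positive differences were found for 6 of 8 further SREBP2 targets, 4 of 11 LXR targets, 6 of 11 genes of SREBP processing, 5 of 10 of isoprenoid use, 2 of 10 of lysosomal and surface cholesterol transport and 3 of 8 of cholesterol esters and oxysterols, where 40% of all genes were positive, and after median ratio scaling the counts were 6, 4, 9, 6, 3 and 3.

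In lung the fatty acid list was positive for 12 of 15 genes with a median of 0.12, and for 11 of 15 with a median of 0.075 after median ratio scaling. Fasn, fatty acid synthase, had 163, 139 and 124 TPM in the RECTAS lungs, against 109.6, 105 and 117 TPM in the vehicle lungs, without overlap, at 0.35 ± 0.10 (limma, adjusted p = 0.309). Npc2, which carries cholesterol out of lysosomes, had 445, 403 and 428 TPM in the RECTAS lungs, against 367, 351 and 376 TPM in the vehicle lungs, at 0.22 ± 0.06 (limma, adjusted p = 0.292). Gramd1b, which moves cholesterol from the surface membrane inward, had 9.65, 9.17 and 9.94 TPM in the RECTAS lungs, against 11.5, 12.2 and 11.7 TPM in the vehicle lungs, lower without overlap, at -0.27 ± 0.07 (limma, adjusted p = 0.275). Over all genes tested in lung, 16.1% were apart and higher and 3.18% apart and lower. In the other lung lists 3 of 8 SREBP2 targets, 9 of 9 LXR targets, 11 of 11 genes of SREBP processing, 8 of 10 of isoprenoid use, 9 of 11 of lysosomal transport and 2 of 7 of esters and oxysterols were positive, where 65.4% of all genes were, and after median ratio scaling the counts were 2, 7, 7, 6, 7 and 1.

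In colon the fatty acid list was positive for 12 of 16 genes with a median of 0.063, and for 11 of 16 with a median of 0.045 after median ratio scaling. Scd2, a stearoyl-CoA desaturase, had 226, 161 and 197 TPM in the RECTAS colons, against 124, 164 and 161 TPM in the vehicle colons, overlapping through RECTAS colon 2. Its difference was 0.38 ± 0.16 (limma, adjusted p = 1). The counts of positive genes were 8 of 8 for the further SREBP2 targets, 5 of 11 for LXR targets, 8 of 11 for SREBP processing, 6 of 10 for isoprenoid use, 8 of 11 for lysosomal transport and 0 of 2 for esters and oxysterols, where 57.2% of all genes were positive, and after median ratio scaling the counts were 6, 4, 7, 5, 7 and 0.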

How the data were processed

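The authors deposited 1 table per library of TPM values, transcript abundances corrected for length that add to 1 fixed total per library, for 55401 genes. The submitters' processing notes name HISAT2 2.2.0, RSEM 1.3.0 and the GRCm38 build, and the annotation release is not given in the sources used here. The labels name TRIzol extraction and a stranded TruSeq mRNA library. TPM keep no depth, so no counting interval was computed. Symbols came from the tables, and gene positions from GENCODE M21 (GRCm38), which held all 28 genes.

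All tests used limma 3.58.1 in R 4.3.3 on the log2 of TPM plus a pseudocount of 1 (moderated variance with a trend), and summaries and promoter searches used Python 3.11.15. A gene entered a fit when 3 or more of its libraries reached 1 TPM, and p-values were adjusted by Benjamini-Hochberg over all of these genes, with a threshold of 0.05. Each tissue was fitted alone for RECTAS against vehicle, the 9 vehicle libraries for tissues, and all 18 libraries for interactions. A fold change on this scale understates that of low genes. The procedure was also run on simulated data in which genes varied independently, so that run does not cover genes that shift together in a library.

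The members and the further lists were chosen with earlier results of these data known. Every library's value is given for up to 6 members with the smallest p in each RECTAS contrast, up to 4 called members with the largest difference per direction in each tissue contrast, and Hmgcs1, Sqle, Insig1, Insig2, Srebf1, Srebf2, Scap, Stard4, Abca1 and Npc1l1. At most 2 genes of each further list, taken from those with the smallest p, are named per contrast. Alternatives changed the pseudocount, filter, scaling, libraries in the fit, replicate block, variance estimate and single libraries.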

Additional observations from a re-analysis of the deposited data

How the results depend on the processing

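Over all alternatives, 397 of the comparisons' values, counts and medians alike, were labelled the same, 72 moved and 1 reversed. Under RECTAS, 0 pathway genes were called in any alternative. These labels are broad. A count was the same within a set ratio, and a median when it kept its sign and moved by less than the SD between library means. The liver median was thus labelled the same when it fell from 0.25 to 0.058 without vehicle liver 1. For single named genes, 1054 values were the same in sign and call, whatever their size, 18 reversed, 1 became stronger and 10 weaker. For medians over all genes tested, 80 were the same and 9 moved. As reported, 2 genes of the whole table were called in liver, 1 in lung and 0 in colon, and 4, 5 and 2 in the interactions of liver minus lung, liver minus colon and lung minus colon. In liver the count was 7 with a filter at 5 TPM, 5 with median ratio scaling, 94 in 1 fit of all 18 libraries, 6 with robust variance and 0 with the replicate block. In lung they numbered 33 in the fit of 18 libraries, and in colon 2 with a pseudocount of 0.1 and 1 in the fit of 18 libraries. Interaction calls in liver minus lung were 0 (pseudocount 0.1), 26 (pseudocount 5), 32 (no filter), 0 (filter at 5 TPM), 0 (rescaled without mitochondrial and top 20 genes) and 0 (replicate block). In liver minus colon they were 1, 10, 13 and 3 for pseudocounts 0.1 and 5, no filter and the replicate block. In lung minus colon they were 1, 4, 26 and 0 for pseudocounts 0.1 and 5, no filter and the filter at 5 TPM, 1 and 1 for the 2 scalings and 0 for the replicate block. As deviations from the group mean, same-numbered RECTAS and vehicle libraries of a tissue correlated at -0.253 to 0.385. Those with unlike numbers correlated at -0.402 to 0.411. Between tissues of 1 treatment the ranges were -0.060 to 0.065 for the same number and -0.092 to 0.125 for unlike numbers. No pairing was assumed, and these values do not settle if tissues came from the same animals. The median of the pathway genes among vehicle tissues was 1.29 (liver against colon) and 2.40 (liver against lung) after median ratio scaling, and in lung against colon -0.85 after that scaling, -0.70 when rescaled and -0.72 with no filter or 18 libraries. The cause of these shifts was not tested.

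Some alternatives were chosen after seeing the data. Without vehicle liver 1 and RECTAS liver 2, 0 genes were called, 13 of 27 pathway genes were positive, their median was -0.010, and Hmgcs1 (-0.087) and Srebf2 (-0.075) changed sign. Without vehicle lung 3 and RECTAS lung 3, 0 genes were called, and Insig1 (0.035) and Abca1 (-0.071) changed sign. Sqle in lung was -0.047 after median ratio scaling and -0.040 when rescaled.

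Leaving out 1 library at a time gave 0 to 6 genes called in liver, 0 to 4 in lung and 0 to 1 in colon, and 0 to 11, 0 to 7 and 1 to 9 in the interactions of liver minus lung, liver minus colon and lung minus colon. The median of the pathway genes ran between 0.058 and 0.41 in liver, 0.061 and 0.19 in lung and 0.046 and 0.23 in colon. In vehicle liver against colon it ran between 0.32 and 0.73, in vehicle lung against colon between -0.63 and -0.51 and in vehicle liver against lung between 1.17 and 1.63, and pathway genes called in vehicle liver against colon numbered 14 to 23, with 23 without vehicle liver 1. Genes whose sign turned ran between -0.48 and 0.15 for Stard4 in liver, -0.059 and 0.13 for Sqle, -0.19 and 0.059 for Insig1, -0.12 and 0.055 for Stard4 and -0.046 and 0.30 for Abca1 in lung, and -0.16 and 0.31 for Insig1 and -0.10 and 0.029 for Insig2 in colon. None of these genes passed the threshold under RECTAS in any of these fits. The depth is unknown, and 3 libraries a group limit the precision.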
